A study of Arabidopsis thaliana with 4 samples.

Results

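The 32 nuclear genes described here encode core subunits of the 2 photosystems, the carriers that pass electrons between and beyond them, and the nuclear subunits of the chloroplast ATP synthase. They were chosen by their locus identifiers, from knowledge of the photosynthetic apparatus, and the light-harvesting antenna genes were left aside. The rule did not use their values, but earlier results of these data were known when the genes were chosen. All 32 were found among the 32833 genes listed, and all 32 were among the 21673 genes that passed the filter on low counts and were tested. The study compared RNA of *Arabidopsis thaliana* seedlings, 14 days old, between the wild type, Col-0, and *mettl4-1*. As the study describes it, *mettl4-1* is a single T-DNA line with the insertion in the first exon of *METTL4*. That gene encodes a methyltransferase of U2 snRNA. There were 2 libraries per genotype and 4 in all. All plants were grown on MS medium in 16 h of light and 8 h of dark at 22 °C by the growth protocol in the labels, whose description of the source counts the dark period as 8, 9, 10 and 11 h across the 4 libraries. The labels do not say whether replicates were separately grown, so p-values measure the spread between these libraries, which may be technical.

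In oxygenic photosynthesis, photosystem II takes electrons from water, the cytochrome b6f complex hands them to the copper protein plastocyanin, and photosystem I passes them to ferredoxin, from which ferredoxin-NADP+ reductase makes NADPH. The proton gradient formed on the way drives the ATP synthase. The reaction centres themselves are encoded in the chloroplast genome. Many of the subunits around them, which stabilise the complexes and dock their partners, are encoded in the nucleus and imported. Each complex thus needs products of both genomes.

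The libraries held between 50862075 and 66003824 counts. *METTL4* (AT1G19340), the mutated gene, had 6.46 and 6.20 CPM (TMM-normalized counts in a library of 1000000 counts) in the Col-0 replicates 1 and 2 and 0.692 and 0.894 in the *mettl4-1* replicates 1 and 2, which fits the labels (log2 fold change −2.99, standard error 0.14, adjusted p = 8.6e-07, edgeR). The libraries also differed in ways that moved with the genotype. Genes of the chloroplast and mitochondrial genomes made up 0.693% and 0.713% of the Col-0 libraries but 2.68% and 1.03% of the *mettl4-1* libraries, replicate 1 first, and nuclear ribosomal RNA genes took 0.495%, 0.37%, 3.65% and 1.25% in the same order. All 11 seed storage and oil body markers were lower in *mettl4-1*, their summed level being 90.6 and 89.3 CPM in Col-0 and 4.98 and 4.99 CPM in *mettl4-1*, with 4 of the 11 (*SESA1*, *SESA3*, *SESA5* and *CRU2*) at 0 counts there. Of 9 root markers, 0 were called in edgeR's test (0 at an unadjusted p under 0.05), with sums of 118 to 121 CPM. Of 5 floral organ markers 0 were called with adjustment and 2 were higher at an unadjusted p under 0.05, the sums being 2.29 and 2.36 CPM in Col-0 and 2.93 and 3.13 CPM in *mettl4-1*. Of 6 leaf mesophyll markers 4 fell and 0 rose at an adjusted p under 0.05 in edgeR's test, where 1.87% of all genes tested fell. Their summed levels were 29343 and 29253 CPM in Col-0 and 26916 and 27993 CPM in *mettl4-1*. In all 6, both *mettl4-1* libraries lay below both Col-0 libraries, an order found in 23% of all genes tested. *CAB3* and *LHB1B1*, also counted among the antenna genes below, had means of only 62.3 and 62.7 CPM in Col-0 and 38.5 and 30.2 CPM in *mettl4-1*. The part of these differences in the results was not tested, and in RNA of whole seedlings fewer green cells and less RNA per cell cannot be told apart.

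Some of these genes hold, around their annotated starts, short sequence elements that the choice of genes did not use. The G-box, CACGTG, and the I-box, GATAAG, are elements known from promoters of light-regulated plant genes. Both were searched on both strands from 250 bases before to 50 bases after the annotated start of each gene, and a copy of one and a copy of the other can share at most 1 base. The G-box was present in 11 of the 32 genes (34.4%), against 7.68% of the 27443 nuclear protein-coding genes with the same window, and the I-box in 17 of the 32 (53.1%), against 14.6%. With only the 250 upstream bases, the G-box was in 5 genes (15.6%, against 6.49%) and the I-box in 9 (28.1%, against 12.3%). For comparison, the letters TATAAA were found in 17 of 32 windows (53.1%, against 52.1%). Also searched were GATTCT, found in 12 of 32 (37.5%, against 19.3%), and CCAAT, found in 19 of 32 (59.4%, against 51.6%). At least 1 of G-box and I-box was found in 24 genes and both in 4, namely *PSAH1*, *PSAH2*, *PSBQ1* and *PSBQ2*. A match is only a match of letters and shows neither binding nor a cause.

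Upstream regions of 5 genes are printed because the results below turn on the genes they belong to. *PSBQ1* and *PSBQ2* are paralogs that carry the same kinds of motif and moved by different amounts, *PSAH2*, like *PSBQ2*, has 3 whole motif copies upstream, *PSAG* was the member with the lowest log2 fold change and has neither motif, and *PETC* was the member closest to no change. Each is the 250 bases before the annotated gene start, 5′ to 3′ on the strand of the gene, from the RefSeq genome TAIR10.1, with the G-box and I-box letters in capitals (CTTATC is the I-box on the other strand).
PSBQ1 (chr4:11334102-11334351, plus strand): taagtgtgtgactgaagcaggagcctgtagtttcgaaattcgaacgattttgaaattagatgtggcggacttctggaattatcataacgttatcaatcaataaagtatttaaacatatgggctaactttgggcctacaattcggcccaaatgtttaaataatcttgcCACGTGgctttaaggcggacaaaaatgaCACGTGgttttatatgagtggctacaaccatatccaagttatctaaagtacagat
PSBQ2 (chr4:2673244-2673493, minus strand): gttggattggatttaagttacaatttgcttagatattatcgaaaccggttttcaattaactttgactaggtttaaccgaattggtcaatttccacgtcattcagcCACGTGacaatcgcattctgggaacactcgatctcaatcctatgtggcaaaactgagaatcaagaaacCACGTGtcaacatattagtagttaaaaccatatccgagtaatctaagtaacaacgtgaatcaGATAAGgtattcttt
PSAH2 (chr1:19454548-19454797, plus strand): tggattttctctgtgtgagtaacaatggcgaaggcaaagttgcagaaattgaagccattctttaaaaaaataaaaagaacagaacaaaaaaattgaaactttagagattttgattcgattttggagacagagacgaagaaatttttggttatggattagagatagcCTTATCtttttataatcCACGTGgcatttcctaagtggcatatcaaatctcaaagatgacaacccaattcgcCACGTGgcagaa
PSAG (chr1:20803450-20803699, minus strand): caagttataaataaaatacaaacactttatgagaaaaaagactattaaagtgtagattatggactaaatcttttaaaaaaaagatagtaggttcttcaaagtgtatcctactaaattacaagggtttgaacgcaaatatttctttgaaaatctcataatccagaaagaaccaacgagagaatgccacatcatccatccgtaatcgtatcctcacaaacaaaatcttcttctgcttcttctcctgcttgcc
PETC (chr4:1439896-1440145, plus strand): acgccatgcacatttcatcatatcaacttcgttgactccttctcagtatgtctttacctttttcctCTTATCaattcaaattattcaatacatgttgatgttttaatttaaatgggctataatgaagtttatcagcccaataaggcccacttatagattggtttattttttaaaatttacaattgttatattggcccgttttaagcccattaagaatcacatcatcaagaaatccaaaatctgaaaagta
The first bases of the G-boxes lie 83 and 55 bases before the start of *PSBQ1*, 145 and 77 bases before that of *PSBQ2*, and 67 and 12 bases before that of *PSAH2*. The I-boxes of *PSBQ2*, *PSAH2* and *PETC* begin 15, 84 and 184 bases before the start. The I-box of *PSBQ1* begins 3 bases before the start and runs past it, so it is not whole in the printed stretch, and *PETC* has another that begins at base 34 of the gene. Over all members, 12 of the 21 I-box sites and 6 of the 14 G-box sites ran into or lay within the first 50 bases of the gene. Members with an I-box had a median log2 fold change of −0.18 (n = 17) and those without −0.13 (n = 15), while members with a G-box had −0.14 (n = 11) and those without −0.16 (n = 21), values that were not tested against each other.

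The main comparison asked how far the RNA of these genes differed between *mettl4-1* and Col-0. Most of the genes were lower in *mettl4-1*, by small amounts. At an adjusted p under 0.05 (edgeR's quasi-likelihood test, Benjamini-Hochberg adjusted over all genes tested), 21 of the 32 fell and 0 rose, where 1.87% of all genes tested fell and 0.96% rose. DESeq2 and limma-voom also called 0 higher at an adjusted p under 0.05. At an unadjusted p under 0.05 in edgeR's test, 29 were lower and 0 higher, against 8.4% and 6.83% of all genes tested. Among the 3189 genes tested whose mean level was at least that of the lowest member, 6.4% fell and 2.23% rose. The median log2 fold change of the 32 was −0.15, beside 0.0015 for all genes tested and −0.02 for the 3189 genes, and 31 of the 32 were below 0. None of the 32 reached the study's threshold of a 1.5-fold change with an unadjusted p under 0.05, a threshold that 1.62% of all genes tested passed. The 32 genes had a summed level of 34307 and 34218 CPM in the Col-0 replicates 1 and 2 and of 30742 and 31887 CPM in the *mettl4-1* replicates 1 and 2, so the mean of *mettl4-1* was 8.6% lower.

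**Figure D1:**
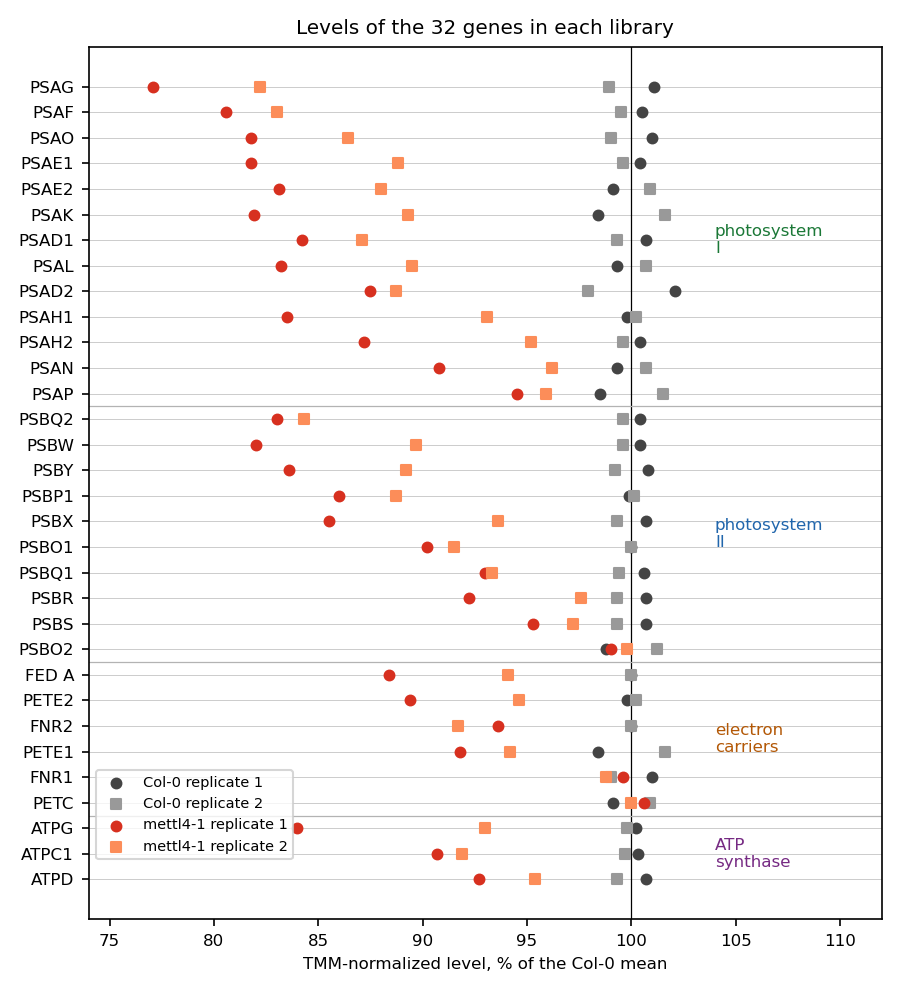
TMM-normalized level of each of the 32 genes in the 4 libraries (points), as a percentage of the mean of the 2 Col-0 libraries, grouped by complex. Both *mettl4-1* points lie left of both Col-0 points in 29 genes, the exceptions being *PSBO2*, *FNR1* and *PETC*, and the *mettl4-1* replicate 1 point is the lower one in 29 genes.

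The 2 Col-0 libraries were close to each other, and the 2 *mettl4-1* libraries less so. The replicates of a member differed by a median of 1.33% of their mean in Col-0 (at most 4.16%) and by 4.46% in *mettl4-1* (at most 10.8%). In 29 of the 32 genes both *mettl4-1* libraries lay below both Col-0 libraries, an order found in 23% of all genes tested and in 40.2% of the 3189 genes at or above the lowest member, while 0 members had both above. *mettl4-1* replicate 1, the library with the largest share of organelle and ribosomal RNA, was the lower of the pair in 29 of 32 genes. The median log2 ratio of the members was −0.21 and −0.18 for *mettl4-1* replicate 1 over Col-0 replicates 1 and 2, and −0.12 and −0.11 for *mettl4-1* replicate 2, against −0.01 between the Col-0 libraries and 0.06 for *mettl4-1* replicate 2 over replicate 1. With *mettl4-1* replicate 1 left out, the median log2 fold change of the members was −0.11, and with *mettl4-1* replicate 2 left out it was −0.19. It was −0.144 and −0.154 with Col-0 replicates 1 and 2 left out. Fits that leave out a library keep 1 library in a genotype and take the spread from the pair of the other genotype. For single members, only the effect sizes of these fits are therefore given below. Cyclic loess normalization with limma's test, a setting that changes both normalization and test, gave a median of −0.11. In that setting 13 members fell, where 1.7% of all genes tested fell. Limma-voom with TMM gave 22, where 1.96% of all genes tested fell. Cyclic loess takes out any dependence of the log ratio on expression level. In 18 fits, the one reported and 17 alternatives, 28 members were below 0 throughout. The members lower at an adjusted p under 0.05 in all 14 fits that left out no library were *PSAD1*, *PSAD2*, *PSAE1*, *PSAE2*, *PSAF*, *PSAG*, *PSAK*, *PSAL*, *PSAO*, *PSBP1*, *PSBQ2*, *PSBW* and *PSBY*. All of these belong to photosystem I or photosystem II.

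**Figure D2:**
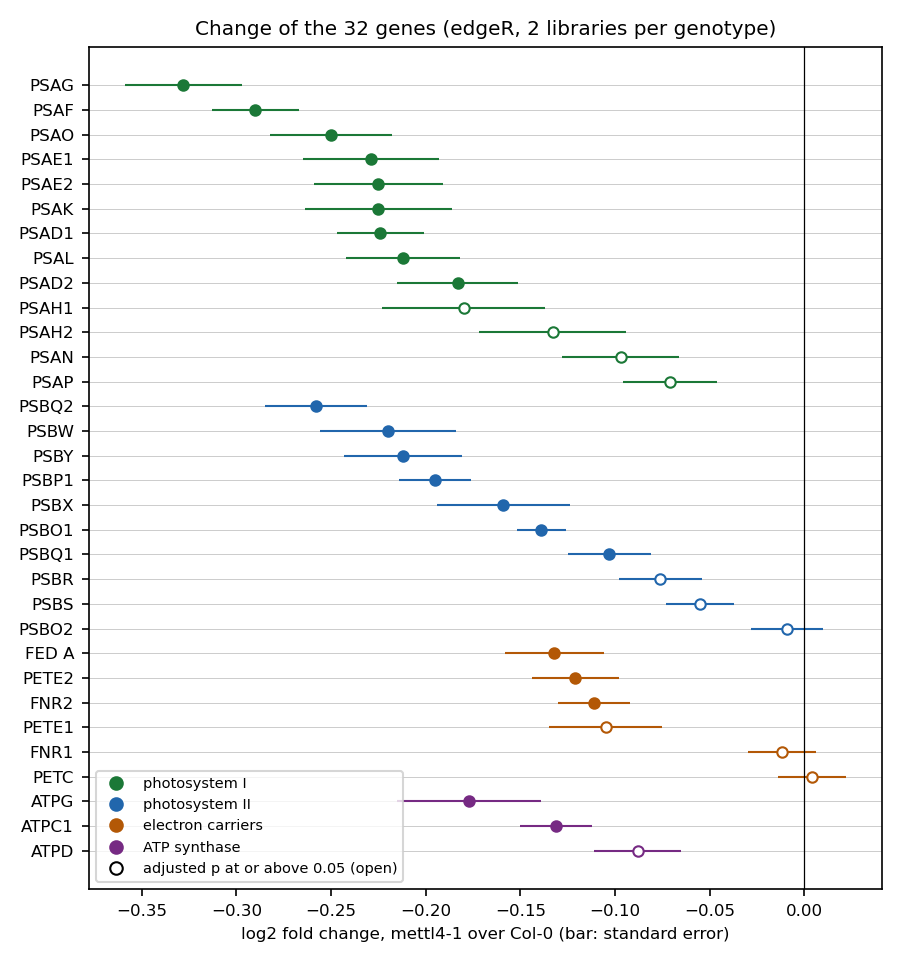
Log2 fold change of each of the 32 genes, *mettl4-1* over Col-0, from edgeR with 2 libraries per genotype (bars are standard errors; filled points have an adjusted p under 0.05 and open points do not). The 13 photosystem I genes run from −0.33 to −0.07, and *PSBO2*, *FNR1* and *PETC* sit at 0 within their errors.

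Photosystem I held the 2 members with the lowest log2 fold changes. Of its 13 genes among the 32, 9 fell and 0 rose, with a median log2 fold change of −0.22. PSAD, PSAE and PSAH each count here with 2 genes. The summed level of the 13 genes was 7611 and 7613 CPM in Col-0 and 6379 and 6748 CPM in *mettl4-1*, 13.8% lower in the mean. *PSAG* (AT1G55670; chromosome 1, 20802670 to 20803449, minus strand, 1 exon) encodes a membrane subunit at the edge of the complex, near the antenna. It had 839 and 821 CPM in Col-0 and 640 and 682 CPM in *mettl4-1*, 20.3% lower by the fit (log2 fold change −0.33, standard error 0.03, adjusted p = 0.000238, edgeR). *PSAF* (AT1G31330; chromosome 1, 11214676 to 11216141, minus strand, 2 exons) encodes the subunit on the lumen side that helps to dock plastocyanin. Its levels were 1002 and 993 CPM in Col-0 and 804 and 828 CPM in *mettl4-1*, and its adjusted p of 5.85e-05 was the smallest of the 32 (log2 fold change −0.29, standard error 0.02, edgeR). For both genes the gap between the genotypes was wider than the spread within either.

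The stromal ridge of photosystem I, on which ferredoxin docks, is built by PSAD and PSAE together with a chloroplast-encoded subunit, and each of the nuclear subunits has 2 genes. *PSAD1* had 986 and 973 CPM in Col-0 and 824 and 853 CPM in *mettl4-1*, and the less abundant *PSAD2* had 140 and 134 CPM against 120 and 122 CPM. On the log2 scale *PSAD1* fell by 0.22 (standard error 0.02, adjusted p = 0.000576, edgeR) and *PSAD2* by 0.18 (standard error 0.03, adjusted p = 0.0129). Without Col-0 replicate 1 the log2 fold change of *PSAD2* was −0.15. *PSAE1* had 536 and 532 CPM in Col-0 and 437 and 474 CPM in *mettl4-1*, and *PSAE2* 301 and 307 CPM against 253 and 268 CPM. Both fell, *PSAE1* by 0.23 (adjusted p = 0.00747, edgeR) and *PSAE2* by 0.22 on the log2 scale (adjusted p = 0.006). All 4 ridge genes thus had both *mettl4-1* libraries below both Col-0 libraries, as had 40.2% of the 3189 genes at or above the lowest member.

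PSAH, PSAL and PSAO lie on the side of photosystem I where the mobile antenna binds during state transitions. *PSAL* had 1074 and 1088 CPM in Col-0 and 899 and 967 CPM in *mettl4-1* (log2 fold change −0.21, adjusted p = 0.00463, edgeR). *PSAO* had 436 and 427 CPM in Col-0 and 353 and 373 CPM in *mettl4-1* (log2 fold change −0.25, standard error 0.03, adjusted p = 0.00222, edgeR). *PSAH1*, with 382 and 383 CPM against 319 and 356 CPM, and *PSAH2*, with 284 and 282 CPM against 247 and 269 CPM, had no overlap between genotypes but missed the threshold in edgeR's test (log2 fold change −0.18 with adjusted p = 0.0575 for *PSAH1* and −0.13 with adjusted p = 0.12 for *PSAH2*). Without *mettl4-1* replicate 1, *PSAH1* and *PSAH2* had log2 fold changes of −0.10 and −0.07, and without replicate 2 they had −0.26 and −0.20. Relative to their mean, the gap between the *mettl4-1* libraries was the largest of the 32 for *PSAH1*, at 10.8%.

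Of the remaining photosystem I genes, *PSAK* fell and *PSAN* and *PSAP* did not pass the test. *PSAK*, which encodes another peripheral membrane subunit, fell by 0.22 on the log2 scale from 448 and 463 CPM to 373 and 406 CPM (adjusted p = 0.0118, edgeR). Without Col-0 replicate 2 its log2 fold change was −0.20. *PSAN*, for a lumenal subunit, had 541 and 548 CPM in Col-0 and 494 and 524 CPM in *mettl4-1* and did not pass (log2 fold change −0.10, adjusted p = 0.142, edgeR). *PSAP* (AT2G46820), also named *CURT1B* for its role in bending thylakoid membranes at the edges of grana, had 643 and 663 CPM against 617 and 626 CPM and the change nearest to 0 in this group (log2 fold change −0.07, adjusted p = 0.199, edgeR). Without *mettl4-1* replicate 2, *PSAN* and *PSAP* had log2 fold changes of −0.14 and −0.08, and without replicate 1 both had −0.06.

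Of the 10 photosystem II genes among the 32, 7 fell and 0 rose, with a median log2 fold change of −0.15. The summed levels of these 10 were 15294 and 15219 CPM in Col-0 and 13803 and 14307 CPM in *mettl4-1*, 7.87% lower in the mean. PSBO, PSBP and PSBQ form the oxygen-evolving enhancer, which sits on the lumen side and stabilises the manganese cluster that splits water. *PSBO1* (AT5G66570; chromosome 5, 26568572 to 26570461, plus strand, 3 exons) had 3529 and 3530 CPM in Col-0 and 3183 and 3228 CPM in *mettl4-1*. Its log2 fold change of −0.14 had the smallest standard error of the 32 (0.01, adjusted p = 0.000238, edgeR), but with cyclic loess and limma the call was lost (−0.07, adjusted p = 0.178, limma). *PSBO2* (AT3G50820), which encodes the other form of the same protein, had 1414 and 1450 CPM in Col-0 and 1417 and 1429 CPM in *mettl4-1*, with both *mettl4-1* values inside the Col-0 range (log2 fold change −0.009, standard error 0.02, adjusted p = 0.877, edgeR). *PSBP1* had 1611 and 1614 CPM against 1387 and 1430 CPM and fell by 0.20 on the log2 scale (standard error 0.02, adjusted p = 0.000355, edgeR).

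*PSBQ2* (AT4G05180; chromosome 4, 2671523 to 2673243, minus strand, 4 exons), whose upstream region is printed above, had the largest decrease of photosystem II. Its levels were 426 and 422 CPM in Col-0 and 352 and 357 CPM in *mettl4-1* (log2 fold change −0.26, standard error 0.03, adjusted p = 0.000573, edgeR). Its paralog *PSBQ1*, listed as *PSBQA* in RefSeq (AT4G21280; chromosome 4, 11334352 to 11335815), had 787 and 778 CPM against 728 and 730 CPM (log2 fold change −0.10, standard error 0.02, adjusted p = 0.0351, edgeR). The call of *PSBQ1* was lost with cyclic loess and limma (adjusted p = 0.245, limma) and with a replicate block (0.0552, edgeR). That of *PSBQ2* stayed in all 14 fits that left out no library. Without Col-0 replicates 1 and 2, *PSBQ1* had log2 fold changes of −0.09 and −0.11.

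The small membrane subunits of photosystem II, *PSBW*, *PSBX* and *PSBY*, fell as well. *PSBW* had 731 and 725 CPM in Col-0 and 597 and 653 CPM in *mettl4-1* (log2 fold change −0.22, adjusted p = 0.00955, edgeR), and *PSBY* 695 and 684 CPM against 576 and 615 CPM (log2 fold change −0.21, adjusted p = 0.00513, edgeR). *PSBX* had 1054 and 1039 CPM against 895 and 979 CPM (log2 fold change −0.16, adjusted p = 0.0365, edgeR). Its adjusted p was 0.105 with cyclic loess and limma, 0.0606 with GC correction (edgeR) and 0.362 with DESeq2. Without *mettl4-1* replicate 1 the log2 fold change of *PSBX* was −0.10, and without Col-0 replicates 1 and 2 it was −0.15 and −0.17. *PSBR*, which encodes a lumenal protein that helps to bind the oxygen-evolving proteins, was the most abundant member per exon length, and its 3502 and 3454 CPM in Col-0 stood against 3205 and 3394 CPM in *mettl4-1* without passing the test (log2 fold change −0.08, adjusted p = 0.114, edgeR). *PSBS*, listed as *NPQ4* in RefSeq and needed to dissipate excess light energy as heat, had 1546 and 1523 CPM against 1463 and 1491 CPM (log2 fold change −0.05, adjusted p = 0.173, edgeR). With *mettl4-1* replicate 2 left out, *PSBR* and *PSBS* had log2 fold changes of −0.118 and −0.069, and with replicate 1 left out −0.035 and −0.041.

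The electron carriers held 2 of the 3 members with the largest p-values, *PETC* and *FNR1*. Of their 6 genes 3 fell and 0 rose, with a median log2 fold change of −0.11 and summed levels of 8349 and 8357 CPM in Col-0 and 7845 and 7998 CPM in *mettl4-1*, 5.16% lower in the mean. *PETC* (AT4G03280; chromosome 4, 1440146 to 1441863, plus strand, 4 exons) encodes the Rieske iron-sulphur protein of the cytochrome b6f complex. Its levels were 1458 and 1485 CPM in Col-0 and 1481 and 1471 CPM in *mettl4-1*, and it was the one member above 0 (log2 fold change 0.004, standard error 0.02, adjusted p = 0.946, edgeR). *PETE2*, the main plastocyanin gene, listed as *DRT112* in RefSeq, had 2159 and 2168 CPM against 1933 and 2046 CPM and fell by 0.12 (adjusted p = 0.0195, edgeR). *PETE1*, the minor plastocyanin gene, was the lowest member with 68.3 and 70.5 CPM in Col-0 and 63.7 and 65.4 CPM in *mettl4-1* (log2 fold change −0.11, adjusted p = 0.109, edgeR). Its log2 fold change was −0.087 and −0.125 without *mettl4-1* replicates 1 and 2, and −0.127 and −0.081 without Col-0 replicates 1 and 2. *FED A*, for the main leaf ferredoxin, had 1566 and 1567 CPM against 1385 and 1474 CPM (log2 fold change −0.13, adjusted p = 0.0217, edgeR).

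Ferredoxin-NADP+ reductase has a pair of leaf genes. *FNR1* had 1657 and 1624 CPM in Col-0 and 1634 and 1621 CPM in *mettl4-1*, which overlapped (log2 fold change −0.012, standard error 0.02, adjusted p = 0.816, edgeR). *FNR2* had 1441 and 1441 CPM in Col-0 and 1348 and 1321 CPM in *mettl4-1* and fell by 0.11 (standard error 0.02, adjusted p = 0.0103, edgeR). Without *mettl4-1* replicate 1, *PETE2* and *FED A* had log2 fold changes of −0.08 and −0.09. The calls of *PETE2*, *FED A* and *FNR2* were lost with cyclic loess and limma (adjusted p = 0.311, 0.19 and 0.306, limma). With either Col-0 replicate left out, their log2 fold changes were −0.12, −0.13 and −0.11.

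The 3 ATP synthase genes among the 32 had summed levels of 3053 and 3029 CPM in Col-0 and 2714 and 2835 CPM in *mettl4-1*. The mean of *mettl4-1* was 8.76% lower. *ATPC1*, for the gamma subunit that forms the turning shaft, had 1267 and 1259 CPM in Col-0 and 1146 and 1161 CPM in *mettl4-1* (log2 fold change −0.13, standard error 0.02, adjusted p = 0.00469, edgeR). *ATPG*, listed as *PDE334* in RefSeq and encoding a subunit of the stalk, had 916 and 912 CPM against 768 and 850 CPM (log2 fold change −0.18, standard error 0.04, adjusted p = 0.0351, edgeR). Without *mettl4-1* replicate 1 the log2 fold change of *ATPG* was −0.10. *ATPD*, for the delta subunit at the top of the complex, had 869 and 858 CPM against 801 and 824 CPM and did not pass (log2 fold change −0.09, adjusted p = 0.0818, edgeR). The calls of *ATPC1* and *ATPG* were lost with cyclic loess and limma (adjusted p = 0.0997 and 0.0745, limma). That of *ATPG* was also lost with DESeq2 (0.374) and with GC correction (0.0528, edgeR). Without Col-0 replicates 1 and 2 the log2 fold change was −0.126 and −0.136 for *ATPC1* and −0.173 and −0.180 for *ATPG*. For *ATPD* it was −0.067 and −0.109 without *mettl4-1* replicates 1 and 2.

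Levels between genes were compared per kilobase of merged exons. In Col-0 the highest was *PSBR* at 4436 CPM per kb, then *PSBO1* at 2340, *PETE2* at 1606 and *FED A* at 1591 CPM per kb, and the lowest were *PSAD2* at 144 and *PETE1* at 66.2 CPM per kb. Genes for single-gene subunits of photosystem I lay between 527 (*PSAO*) and 1064 (*PSAG*) CPM per kb. The 3 ATP synthase genes were close to each other in Col-0, at 830 (*ATPC1*), 818 (*ATPG*) and 750 (*ATPD*) CPM per kb, and in *mettl4-1* they had 758, 724 and 706 CPM per kb. By mean CPM, 30 of the 32 genes were among the 500 most abundant of all genes tested and 23 among the 200 most abundant, while *PETE1* ranked 3189th. Across the 32 genes, which share the same libraries and are not replicates, the log2 fold change had a Spearman correlation of 0.44 with the log2 level, 0.35 with exon length and −0.13 with GC content, given as a description.

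**Figure D3:**
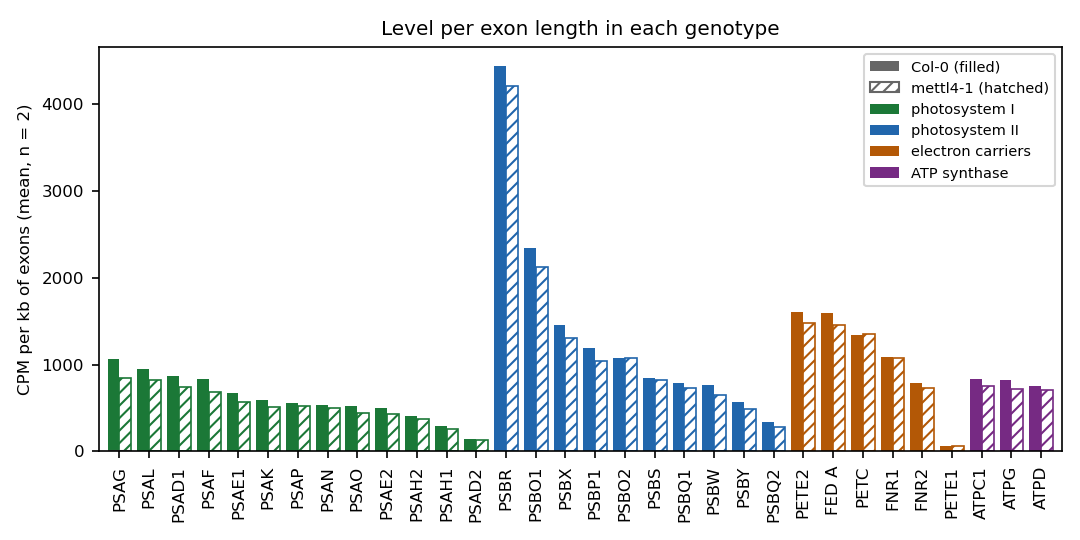
Mean level per kb of merged exons (CPM per kb, n = 2 libraries) of each gene in Col-0 (filled bars) and *mettl4-1* (hatched bars), ordered within each complex. *PSBR* reaches 4436 CPM per kb in Col-0 and *PETE1* 66.2 CPM per kb.

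Where 2 genes encode the same subunit, their ratio within a library does not depend on how libraries are scaled. There are 7 such pairs here. *PSBQ1* made up 64.9% and 64.8% of the counts of its pair in Col-0 and 67.4% and 67.2% in *mettl4-1*, so the log2 ratio of *PSBQ1* to *PSBQ2* was 0.16 higher in *mettl4-1*. *PSBO1* made up 71.4% and 70.9% in Col-0 and 69.2% and 69.3% in *mettl4-1*, the log2 ratio to *PSBO2* being lower by 0.13 (1.30 ± 0.025 against 1.17 ± 0.006, SD, n = 2). *FNR1* made up 53.5% and 53% in Col-0 and 54.8% and 55.1% in *mettl4-1*, the log2 ratio to *FNR2* being 0.10 higher. The genotypes did not overlap in any of these 3 pairs.

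The other pairs shifted less. The log2 ratios of *PSAD1* to *PSAD2* and of *PSAH1* to *PSAH2* were lower by 0.04 and 0.05 in *mettl4-1* without overlap, and those of *PSAE1* to *PSAE2* and *PETE1* to *PETE2* overlapped between genotypes, with *PETE1* at 3.07% to 3.19% of its pair in all 4 libraries. The exact two-sided permutation test over libraries gave p = 0.333 in the 5 pairs without overlap, which is the smallest p that 2 libraries against 2 can give, and p = 0.667 in the other 2 (0.467 and 0.667 after Benjamini-Hochberg adjustment over the 7 pairs), so this test cannot reach 0.05 here and says nothing on whether the ratios differ. With each library left out in turn, the difference stayed between 0.15 and 0.16 for *PSBQ1* to *PSBQ2*, between −0.15 and −0.11 for *PSBO1* to *PSBO2* and between 0.08 and 0.11 for *FNR1* to *FNR2*. Exons of paralogs matched at 73% identity (plastocyanin) to 87.4% (PSAH) over the aligned part, so reads falling there differ between the copies at many bases, although the settings for reads that map to several places are not given in the sources used here.

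**Figure D4:**
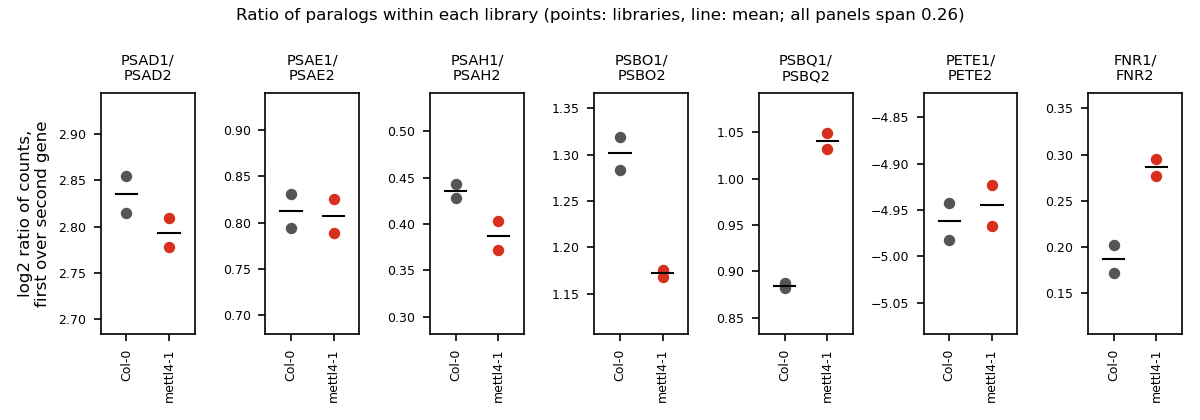
Log2 ratio of the counts of 2 paralogs within each library (points; lines are means of 2 libraries) for the 7 pairs, with panels of equal span. The *PSBO1*/*PSBO2*, *PSBQ1*/*PSBQ2* and *FNR1*/*FNR2* ratios separate the genotypes most widely, by −0.13, 0.16 and 0.10.

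Among the 32 genes, 9 share exonic bases with a gene on the other strand. *PSAG* shares 479 bases of exons with AT1G55673, which had 0.164 and 0.225 CPM in Col-0 and 0.297 and 0.272 CPM in *mettl4-1*, and *PSAH1* shares 693 bases with *ROPGEF13*, which had at most 0.0791 CPM in any library. *PSAE1* shares 263 bases with AT4G28755 (0.199 CPM in Col-0 and 0.197 CPM in *mettl4-1* in the mean), *FNR1* 191 bases with AT5G66180 (11.4 CPM in both) and *PSAH2* 174 bases with *ROPGEF11* (1.27 and 0.989 CPM). In the other 4, *PSAE2*, *PSBR*, *PSBP1* and *PSAN*, the shared stretch is 39 to 63 bases. The library kit keeps the strand, but the strand setting of the counting is not given in the sources used here, so reads of these partners cannot be told apart with certainty.

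Other nuclear genes of the thylakoid were followed in a list of 46 genes, among them assembly factors, subunits of the NADH dehydrogenase-like complex, minor ferredoxins and regulators. The list also holds photosystem II genes outside the 32, such as *PSBTN*, *PSB27* and *PSB28*. In that list 7 fell, 15.2% of its members, and 0 rose (1 was higher at an unadjusted p under 0.05), with a median log2 fold change of −0.02, and its summed level was 9639 and 9653 CPM in Col-0 and 9156 and 9413 CPM in *mettl4-1*. The smallest p-values belonged to AT1G22700, annotated as a thylakoid protein of photosystem I biogenesis (log2 fold change −0.19, adjusted p = 0.00463, edgeR), to *CURT1A* (log2 fold change −0.20, adjusted p = 0.00603) and to *FD3*, a minor ferredoxin (log2 fold change −0.17, adjusted p = 0.0118). The second gene of the gamma subunit, *ATPC2*, was at 5.18 and 5.53 CPM in Col-0 and 5.02 and 5.79 CPM in *mettl4-1*. Of 20 nuclear antenna genes, 14 fell (70%, beside 65.6% of the 32 genes and 1.87% of all genes tested). None rose (0 were higher at an unadjusted p under 0.05). The antenna genes had a median log2 fold change of −0.24 and a lowest value of −1.05 beside the −0.33 of *PSAG*. The 32 genes, the 46 genes and the antenna genes were measured in the same 4 libraries, and their differences from each other were not tested.

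The chloroplast genome encodes other subunits of the same complexes, and a chosen list of 12 chloroplast loci was set beside the nuclear genes. They are given by identifier because the reference used here does not pair them with names. Of these 12, 9 were higher in *mettl4-1* and 0 lower in edgeR's test, where 0.96% and 1.87% of all genes tested were. At an unadjusted p under 0.05, 10 were higher and 0 lower, against 6.83% and 8.4% of all genes tested. The median log2 fold change was 2.18. All organelle genes together rose from 0.693% and 0.713% of the Col-0 libraries to 2.68% and 1.03% of the *mettl4-1* libraries. Whether these 12 loci differed from other organelle genes was not tested. Summed over the 12, Col-0 had 2008 and 2258 CPM, while the *mettl4-1* replicates 1 and 2 had 7693 and 2578 CPM, so the 2 *mettl4-1* libraries stood far apart. ATCG00350 had 69.5 and 52.8 CPM in Col-0 against 1056 and 217 CPM in *mettl4-1*, and ATCG00480 had 1371, 1676, 1569 and 1139 CPM with Col-0 first. ATCG00020 had 203 and 189 CPM against 2172 and 526 CPM, and ATCG00720 had 9.29 and 9.61 CPM against 75.4 and 17.8 CPM, so in 3 of these 4 loci *mettl4-1* was higher, most of all in replicate 1, while ATCG00480 overlapped. With all organelle genes taken out before normalization, 25 of the 32 nuclear genes fell, *PSAH1*, *PSAH2*, *PSAN* and *ATPD* being gained. Of all genes tested, 2.7% fell in that fit, against 1.87% in the reported fit. The median log2 fold change of the 32 was −0.15 in both fits. The count was again 25 and the median −0.15 with the nuclear ribosomal RNA genes taken out as well, where 2.9% of all genes tested fell.

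**Figure D5:**
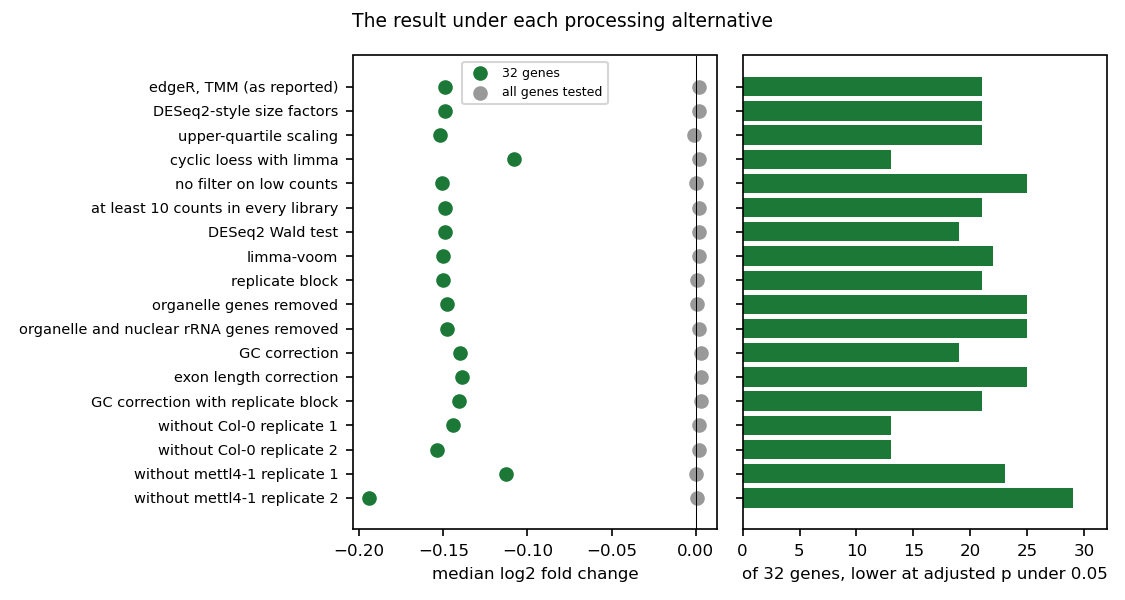
Median log2 fold change of the 32 genes and of all genes tested (left, points) and number of the 32 genes lower at an adjusted p under 0.05 (right, bars) in the reported fit and 17 alternatives. The median of the 32 genes lies between −0.19 and −0.11 in every fit and that of all genes within 0.003 of 0. In the fits that left out no library the count runs from 13 to 25. Fits that leave out a library take the spread from the pair of the other genotype alone.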

How the data were processed

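The values analysed were counts per gene from 4 RNA-seq libraries of a strand-specific mRNA kit. The deposited counts per gene were made by the authors with Cutadapt 3.5 (trimming), HISAT2 2.2.1 (alignment to TAIR10), SAMtools 1.13 (a mapping-quality filter) and featureCounts 2.0.1. The limit of that filter, annotation release and strand, multi-mapping and overlap settings are not given in the sources used here, and could change the counts of paralogs and overlapping genes. Each library's genotype came from its labels. For *mettl4-1* replicate 2, the deposited name differs from the label in the number of the line, and the column repeats the name of replicate 1. The labels were followed, and whether both libraries come from the same line could not be checked.

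Counts were tested in R 4.3.3 with edgeR 4.0.16 (TMM, glmQLFit and glmQLFTest after filterByExpr at 10 counts, genotype as the only term, all 4 libraries), and p-values were Benjamini-Hochberg adjusted over the 21673 genes tested. Standard errors were derived from the F statistic. CPM are TMM-normalized counts in 1000000. DESeq2 1.42.0 and limma 3.58.1 were used for alternatives, which are given in the closing section. The authors' threshold was a 1.5-fold change with an unadjusted p under 0.05. Within genotypes, 228 genes differed beyond sampling noise between the Col-0 libraries and 1129 between the *mettl4-1* libraries (chi-square test on scaled counts, adjusted), of which 7 and 23 were among the 32 genes. Replicates thus differed by more than sampling noise, and each library was counted as 1 sample, which does not show that they were grown separately. Names, positions and upstream sequences were taken from RefSeq's TAIR10.1, where all 32 genes were matched, and exon identity from blastn 2.17.0. The fits were tested on simulated data.

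The 32 genes and all lists were chosen with earlier results of these data known. Every member is named, with values in every library for the paralog pairs, the 8 smallest p, every member above 0 and the 3 largest p. Of the other nuclear thylakoid genes, up to 3 with the smallest p in each direction were named by rule, and of the chloroplast loci 1 per complex. Values of the other members were added after they were seen.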

Additional observations from a re-analysis of the deposited data

How the results depend on the processing

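All 17 alternative fits kept the median of the 32 genes below 0 and called 0 of them higher. With cyclic loess normalization and limma's test together 13 genes were lower in place of 21, the median log2 fold change was −0.108, and *PSBO2*, *FNR1* and *PSBS* changed sign to 0.046, 0.046 and 0.001. *PSBO2* also changed sign with GC correction, alone or with a replicate block (0.026 in both). The cause was not tested. Leaving out 1 library gave 13 to 29 genes lower, a median between −0.194 and −0.113, and over all genes 204 to 1104 lower and 153 to 721 higher; *PSBO2*, *PETC* and *FNR1* crossed 0, with ranges of −0.026 to 0.009, −0.009 to 0.018 and −0.026 to 0.003. In these fits a lone library is assumed to vary like the other genotype. Over all genes, 406 were lower and 208 higher as reported; 338 were higher with no filter on low counts, 98 were higher with DESeq2's Wald test, and 625 were lower with organelle and nuclear rRNA genes removed. At a 1.2-fold threshold 2 of the 32 genes were called, at 1.5-fold and 2-fold 0. Deviations of same-numbered libraries correlated at 0.00416 over all genes, so no shared shift was seen. This does not show whether same-numbered libraries were grown or prepared together. With a replicate block 21 of the 32 genes were lower, *PSBQ1* lost its call (adjusted p = 0.0552) and *PSAH1* gained one (adjusted p = 0.0241, edgeR). Depth set little limit: *PETE1*, the lowest of the 32, had 3222 to 4698 counts per library.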
